A study of Mus musculus with 9 samples.

Results

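The step from pachytene spermatocytes to round spermatids of the mouse testis was followed gene by gene and pathway by pathway. Pachytene spermatocytes (PAC) are meiotic cells whose paired chromosomes recombine, and round spermatids (RS) are the haploid cells that both divisions leave behind. RNA of the 3 RS libraries was set against RNA of the 3 PAC libraries, which are 6 of the 9 libraries of the series. The other 3 are elongating spermatids (ES), a later haploid stage that entered the fit and is not described here. All cells were of wild-type (WT) genotype, from testis, with no treatment named in the labels. The sources used here do not give strain, age, the way the cells were isolated or the number of animals behind a library, and p-values therefore measure the spread between these libraries. Total RNA was depleted of ribosomal RNA and sequenced with the strand kept.

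Spermatocytes prepare much of what spermatids later use. After meiosis the genome is transcribed for some days more, many mRNAs are stored for later translation, and the cell stops dividing, rebuilds its nucleus, forms the acrosome and sheds much of its cytoplasm. Housekeeping genes on the X chromosome are silenced in spermatocytes by meiotic sex chromosome inactivation, and for several of them an autosomal relative, often an intronless retrogene, is active in the germ line. The account below leaves the usual meiosis and acrosome markers to 1 check of identity and follows protein synthesis, metabolism, membranes, chromatin, signalling and the cytoskeleton.

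The table held 50493 features, of which 26030 had enough counts to be tested, and total counts ran from 22910156 to 33801617 per library. Levels are CPM, counts scaled to the size of the library, after correction by TMM, a trimmed mean of ratios between libraries. Values are given per library, for PAC replicates 1 to 3 and RS replicates 1 to 3 in that order, or as mean ± SD of 3 libraries, and log2 fold changes are RS over PAC with their standard error (SE). Coordinates are those of RefSeq genes in GRCm38.p6. A gene is said to have risen or fallen in RS only where edgeR's quasi-likelihood test gave an adjusted p below 0.05. In each gene named below as risen or fallen, all 3 RS libraries lay on 1 side of all 3 PAC libraries in CPM, which the choice of most of these genes required. The share of all tested features with such a separation was not counted, so it does not set the named genes apart. The test called 72.5% of all features, 9956 higher (38.2%) and 8907 lower (34.2%), and the median log2 fold change was 0.11. Of the 14836 protein-coding genes among them it called 73.2%, of which 3901 (26.3% of those tested) were higher and 6962 (46.9%) lower around a median of -0.46, and these shares are the background for every list below. The split depends on the scaling. With TMM factors taken from protein-coding genes, 5025 protein-coding genes rose and 5293 fell, the median moved up by 0.39, and 48.7% of the calls were increases in place of 35.9%. Over all features that scaling gave 11864 higher and 6774 lower, 63.7% of calls against 52.8%, and upper-quartile factors gave 11492 and 7172 (61.6%) over all features and 4794 and 5605 (46.1%) over protein-coding genes. A fall is therefore a fall relative to the rest of the RNA of the library, and in bulk RNA fewer cells of a type and less RNA per cell cannot be told apart.

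The labels were checked against marker genes. Of 10 pachytene markers, 8 fell and 1, Syce2, rose (48.2 ± 6.16 CPM in PAC and 137 ± 7.02 CPM in RS). Of 10 round spermatid markers 9 rose, and the proacrosin gene Acr did not pass the test (67.8 ± 24 CPM in PAC and 64.9 ± 3.2 CPM in RS, adjusted p = 0.852). Markers of elongating spermatids were also higher in RS in 10 of 10 cases, with summed levels of 2194 to 3033 CPM in PAC and 15640 to 17690 CPM in RS. Somatic markers moved between the groups as well. All 10 Leydig cell markers fell, with summed levels of 121 to 163 CPM in PAC and 2.27 to 2.59 CPM in RS, where Lhcgr, the luteinizing hormone receptor, had no counts. All 9 tested Sertoli cell markers fell (5 with log2(FPKM + 1) values), from 30.6 to 60.8 CPM summed in PAC to between 6.02 and 6.48 CPM in RS, with Amh and Fshr at 0 in RS. Macrophage and blood markers rose in 7 of 11 cases (6.47 to 7.99 CPM summed in PAC, 19.4 to 23.4 CPM in RS), and peritubular and vascular markers in 4 of 7 (6.0 to 7.57 and 14.6 to 24.6 CPM). Of 10 spermatogonia markers 3 fell and 2 rose (254 to 464 CPM summed in PAC, 249 to 286 CPM in RS). The part of these cells in the results was not tested. Known expression in Leydig cells is marked below for Aldh1a1 and Cyp19a1 alone, and the other genes that fell were not checked for it.

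Across 65 lists of genes by pathway, complex or family name, 60 had more members that fell than rose and 4 had more that rose, and in 48 the share that fell was above the protein-coding background. With TMM factors from protein-coding genes, whose background was 33.9% higher and 35.7% lower, the lists with a share of falls above background again numbered 48, while those with more falls than rises numbered 46. Under that scaling 19 lists had more rises than falls in place of 4. These were the 4 (Hippo signalling, potassium channels, olfactory receptors and leucine-rich repeat genes) and the lists on ketone use, phospholipids, redox systems, phosphoinositides, nucleotide kinases, translation elongation, 3′ end formation, junctions, actin, Gpr and Adgr receptors, and the Usp, Rnf, Trim, Dnaj and Ccdc families. Only 32 of 1119 olfactory receptor genes were tested, and those that entered only through RS counts had to be higher there. The lists on the genome and chromatin and on RNA and translation had the largest shares of falls of the themes. The former had 64.7% of 666 tested genes lower and 13.5% higher, the latter 64.1% of 326 lower and 13.8% higher. The 666 include the 343 numbered zinc finger genes, also gathered by name, of which 65.6% fell and 14.9% rose. The other families gathered by name stood at the other end, with 42.6% of 884 lower and 30.1% higher. Lists on signalling lay between, at 52.5% of 385 genes lower and 21.3% higher, and on metabolism at 57.5% of 388 lower and 18.6% higher.

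**Figure D1:**
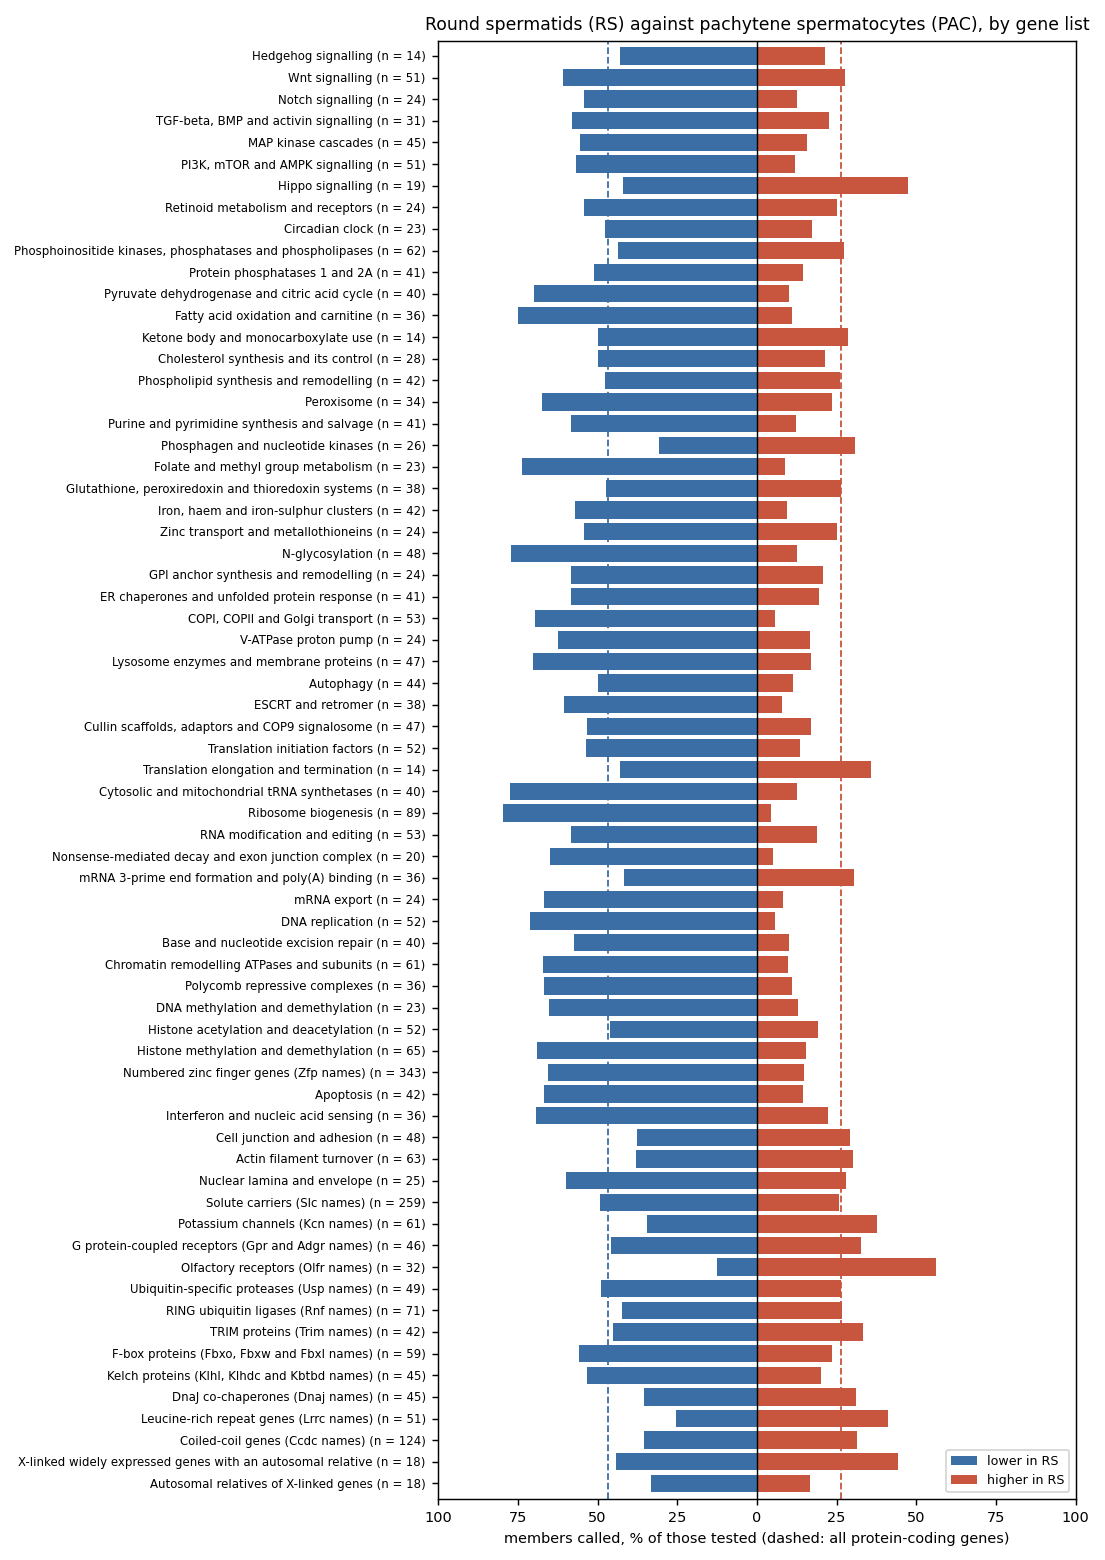
Share of tested members of each gene list called lower (left, blue) or higher (right, red) in round spermatids than in pachytene spermatocytes, in percent, with dashed lines at the protein-coding background of 46.9% lower and 26.3% higher. Ribosome biogenesis, tRNA synthetases and N-glycosylation reach far to the left of their dashed line, and olfactory receptors, Hippo signalling and leucine-rich repeat genes reach beyond the right one. Only 32 of 1119 olfactory receptor genes were tested, and those that entered only through counts in round spermatids had to be higher there.

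Genes of the machinery that builds ribosomes mostly fell in RS. Ribosome biogenesis takes place in the nucleolus, where RNA polymerase I makes the ribosomal RNA precursor and processing factors trim and modify it. Of 89 tested biogenesis genes, 71 fell and 4 rose (median log2 fold change -1.12). The helicase gene Ddx51, which acts in maturation of the large subunit, measured 61.4, 44.8 and 46 CPM in PAC and 4.91, 5.68 and 6.89 CPM in RS, so that all PAC libraries lay above all RS libraries (chr5:110653432-110663019, log2 fold change -3.12, SE 0.19, adjusted p = 2.1e-07). Nop16, a nucleolar protein of the large subunit pathway, fell from 14.8 ± 2.84 to 1.83 ± 0.182 CPM, and Rrn3, the factor that brings RNA polymerase I to the ribosomal promoter, from 50.8 ± 6.26 to 7.85 ± 0.323 CPM. The members that rose included Rpf2, an assembly factor of the large subunit (27.3 ± 2.21 to 59 ± 7.35 CPM), Snu13 (57.3 ± 5.72 to 105 ± 8.54 CPM) and the X-linked Utp14a (2.23 ± 0.61 to 5.54 ± 0.691 CPM). With TMM factors from protein-coding genes 8 members rose and 55 fell.

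Charging of tRNA followed the same direction. Of 40 tested aminoacyl-tRNA synthetase and associated genes, 31 fell and 5 rose (median -1.06). Hars2, the mitochondrial histidyl-tRNA synthetase, fell from 13.8 ± 3.62 to 1.62 ± 0.377 CPM, Rars2 from 41.2 ± 0.985 to 9.97 ± 1.14 CPM, and the cytosolic aspartyl enzyme Dars from 271 ± 44.3 to 143 ± 6.31 CPM. Vars, the valyl-tRNA synthetase, went the other way, with 39.5, 45.4 and 44.9 CPM in PAC and 134, 134 and 133 CPM in RS and no overlap between the groups (chr17:35000907-35016329, log2 fold change 1.63, SE 0.13, adjusted p = 1.24e-06).

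Translation factors were mixed. Of 52 tested initiation factor genes and related regulators 28 fell and 7 rose, around a median of -0.40 against -0.46 for protein-coding genes, and 17 fell and 13 rose under the protein-coding scaling. Eif2b1, a subunit of the exchange factor that recharges eIF2, fell from 14.5 ± 3.77 to 0.997 ± 0.237 CPM (-3.86 on the log2 scale, adjusted p = 3.68e-06). Eif1ax, an X-linked scanning factor, measured 9.3, 11.4 and 9.37 CPM in PAC and 50.3, 49.5 and 51.8 CPM in RS and was higher in every RS library (2.33 on the log2 scale, adjusted p = 1.33e-06), and Eif2s3y, the Y-linked copy of the eIF2 gamma subunit, rose from 27 ± 3.32 to 84.4 ± 4.38 CPM. The genes of the cap-binding inhibitors crossed: Eif4ebp2 fell from 13.4 ± 2.47 to 1.33 ± 0.144 CPM and Eif4ebp1 rose from 1.95 ± 0.586 to 7.39 ± 0.616 CPM. Of 14 elongation and termination genes 6 fell and 5 rose. Eef1d, the delta subunit of the factor that reloads eEF1A with GTP, rose from 216 ± 17.6 to 650 ± 11.1 CPM, and Etf1, which reads the stop codons, from 145 ± 13.5 to 333 ± 9.69 CPM. Eef1e1, which is part of the multi-synthetase complex, fell from 8.3 ± 2.22 to 0.986 ± 0.425 CPM, and 2 members of this list fell under the protein-coding scaling.

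Genes of mRNA export and of mRNA surveillance mostly fell. Among 24 tested mRNA export genes 16 fell and 2 rose (median -1.45). Alyref, the adaptor that hands spliced mRNA to the export receptor, measured 182, 144 and 113 CPM in PAC and 7.23, 7.89 and 8.99 CPM in RS, the strongest fall of this list (chr11:120594504-120598399, log2 fold change -4.19, SE 0.22, adjusted p = 7.4e-08). Ddx39a and Ddx19b, helicases at the loading and release of exported mRNA, fell from 122 ± 19.2 to 29.6 ± 0.989 CPM and from 368 ± 34.3 to 94.7 ± 1.36 CPM. In nonsense-mediated decay and the exon junction complex 13 of 20 genes fell and 1 rose (2 under the protein-coding scaling). Upf1, the helicase at the core of that decay pathway, fell from 146 ± 15.9 to 18.1 ± 0.346 CPM (-3.01 on the log2 scale, adjusted p = 2.46e-07), whereas Upf3b on the X chromosome rose from 4.35 ± 0.698 to 12.1 ± 1.29 CPM.

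Of 36 genes of mRNA 3′ end formation and poly(A) binding 15 fell and 11 rose, shares of 41.7% and 30.6%. Papolb, the cytoplasmic poly(A) polymerase of the testis, rose from 824 ± 105 to 1309 ± 65.6 CPM, and Tent5d, a noncanonical poly(A) polymerase gene on the X chromosome, from 40.3 ± 2.85 to 136 ± 6.11 CPM. Papolg and Cpsf7, a nuclear polymerase and a cleavage factor subunit, fell from 40 ± 4.33 to 5.65 ± 0.357 CPM and from 8.13 ± 4.28 to 1.25 ± 0.304 CPM. Among 53 genes of RNA modification and editing 31 fell and 10 rose. Adad2, a testis relative of the adenosine deaminases, measured 69.6, 63.4 and 43.2 CPM in PAC and 5.15, 6.69 and 6.13 CPM in RS (-3.29 on the log2 scale, adjusted p = 3.45e-07), while its relative Adad1 rose from 286 ± 38.5 to 416 ± 7.03 CPM. Wtap, the regulatory subunit of the m6A methyltransferase, fell from 15.9 ± 1.56 to 3.9 ± 0.219 CPM, and the editing enzyme Adarb1 rose from 15.5 ± 3.23 to 36.6 ± 1.29 CPM.

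Genes of DNA replication and repair mostly fell in RS. Of 52 replication genes 37 fell and 3 rose (median -0.97), or 6 rose under the protein-coding scaling. Cdc7, the kinase that fires origins, measured 39.1, 34.4 and 30.6 CPM in PAC and 3.89, 3.52 and 3.24 CPM in RS, and Gmnn, the inhibitor of origin licensing, fell from 24.2 ± 2.08 to 2.95 ± 0.37 CPM. Fen1, the flap nuclease of lagging-strand synthesis, rose from 2.42 ± 0.46 to 8.55 ± 0.721 CPM. In base and nucleotide excision repair 23 of 40 genes fell and 4 rose. Ercc2 and Gtf2h3, subunits of the TFIIH complex shared by repair and transcription, fell from 104 ± 21 to 12.8 ± 0.815 CPM and from 17.9 ± 6.04 to 2.29 ± 0.405 CPM. Aptx, which clears aborted ligation ends, rose from 80.1 ± 11.1 to 218 ± 12.8 CPM (1.44 on the log2 scale, adjusted p = 2.02e-05).

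Chromatin regulators mostly fell. Of 36 Polycomb genes, members of the complexes that place repressive histone marks, 24 fell and 4 rose (median -1.18), and with any 1 PAC or RS library left out the members that rose numbered 1 or 2. L3mbtl2, Pcgf5 and Cbx7, members of variant and canonical PRC1, fell from 131 ± 25.6 to 8.3 ± 0.603 CPM, from 166 ± 22.1 to 12.6 ± 1.75 CPM and from 151 ± 10.3 to 17.7 ± 0.856 CPM. Bmi1, the PRC1 subunit also called Pcgf4, measured 92.2, 113 and 105 CPM in PAC and 281, 288 and 296 CPM in RS and so rose in all RS libraries (chr2:18677018-18686629, log2 fold change 1.48, SE 0.15, adjusted p = 7.38e-06). Ezh2, the methyltransferase of PRC2, did not pass the test (50 ± 9.61 CPM in PAC and 43.2 ± 0.839 CPM in RS, adjusted p = 0.236). DNA methylation genes fell in 15 of 23 cases and rose in 3, or 5 without PAC replicate 3. Dnmt1, the maintenance methyltransferase, measured 29.8, 35 and 52 CPM in PAC and 3.22, 1.97 and 3.1 CPM in RS (chr9:20907206-20959888, log2 fold change -3.82, SE 0.31, adjusted p = 1.87e-06), and the methyl-binding Mbd1 fell from 15.7 ± 3.66 to 2.29 ± 0.0941 CPM while Mbd2 rose from 10.4 ± 1.18 to 24.9 ± 0.748 CPM.

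Histone methylation genes fell in 45 of 65 cases and rose in 10 (median -1.03). The arginine methyltransferase gene Prmt6 fell from 14.2 ± 1.82 to 0.676 ± 0.105 CPM and the demethylase gene Phf2 from 35 ± 16.4 to 1.81 ± 0.615 CPM. Suv39h2, the testis form of the H3K9 methyltransferase, rose from 40.6 ± 3.7 to 121 ± 9.66 CPM, and Uty, on the Y chromosome, from 6.39 ± 0.501 to 16.8 ± 2.05 CPM. Histone acetylation genes fell in 24 of 52 cases and rose in 10, with a median of -0.37. Kat7, the acetyltransferase of the HBO1 complex, measured 387, 421 and 540 CPM in PAC and 78.4, 76.4 and 91.5 CPM in RS, and Trrap, a scaffold of several acetyltransferase complexes, fell from 44.1 ± 19.2 to 4.54 ± 0.567 CPM. The deacetylase genes Hdac11 and Hdac5 rose, from 33.8 ± 3.87 to 106 ± 6.17 CPM and from 25 ± 3.22 to 70.2 ± 3.13 CPM. Of 61 remodelling genes 41 fell and 6 rose. Among the latter were Chd5, an ATPase known for its part in replacing histones in spermatids (45.2 ± 22.2 to 102 ± 6.08 CPM), and Dpf3, a BAF subunit (9.7 ± 0.627 to 28 ± 2.29 CPM). The numbered zinc finger genes, gathered by the Zfp name and not by function, fell in 225 of 343 cases (65.6%) and rose in 51 (14.9%), with a median of -1.31. Zfp606 went from 15.3 ± 1.78 to 0.581 ± 0.194 CPM and Zfp474 from 78.9 ± 16.5 to 267 ± 7.57 CPM.

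**Figure D2:**
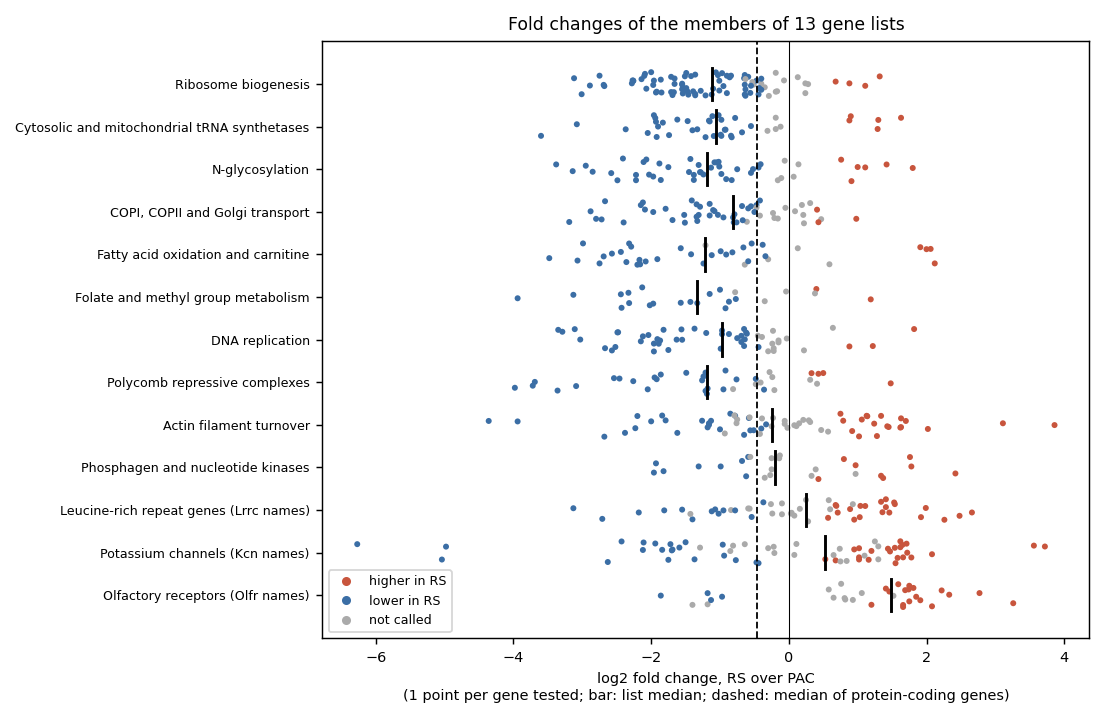
Log2 fold change from pachytene spermatocytes to round spermatids for each tested member of 13 gene lists (points, red for higher, blue for lower, grey for not called), with the list median as a bar and the protein-coding median of -0.46 as a dashed line. The medians of ribosome biogenesis (-1.12), N-glycosylation (-1.18) and folate metabolism (-1.33) lie to the left of that line, and those of leucine-rich repeat genes (0.25), potassium channels (0.53) and olfactory receptors (1.49) to its right. Only 32 of 1119 olfactory receptor genes had enough counts to be tested, and the median covers these alone.

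Genes of the nuclear envelope moved in both directions, also within some families named here. Several of these genes were chosen after their values were seen, and families were not counted. Of 25 lamina and envelope genes 15 fell and 7 rose. Lbr, the inner membrane receptor that tethers heterochromatin, measured 64, 52.5 and 49.3 CPM in PAC and 4.46, 3.71 and 4.99 CPM in RS (chr1:181815315-181842401, log2 fold change -3.65, SE 0.22, adjusted p = 2.32e-07), and Cbx1 and Cbx5, which encode heterochromatin proteins HP1 beta and alpha, fell from 20.9 ± 1.96 to 2.35 ± 0.316 CPM and from 52.6 ± 19.9 to 11.7 ± 0.965 CPM. The lamin genes split: Lmnb1 fell from 14.9 ± 3.21 to 5.57 ± 0.0748 CPM and Lmnb2 rose from 61.6 ± 6.63 to 178 ± 23.8 CPM, with no overlap of the groups for either. Banf1, which bridges DNA and the envelope, fell from 11.5 ± 2.31 to 5.16 ± 0.388 CPM and its relative Banf2 rose from 21.2 ± 4.27 to 63.3 ± 9.0 CPM. Nemp1 fell from 373 ± 43.9 to 124 ± 8.86 CPM and Nemp2 rose from 3.59 ± 1.08 to 15.1 ± 2.01 CPM, and Lemd1 and Nrm, both of the inner membrane, rose from 23.2 ± 3.15 to 84.6 ± 5.11 CPM and from 23.8 ± 4.24 to 66.1 ± 4.13 CPM.

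Genes of mitochondrial fuel use changed unevenly. Of 40 genes of pyruvate dehydrogenase and the citric acid cycle 28 fell and 4 rose (median -0.87). The succinate dehydrogenase genes Sdha, Sdhc and Sdhd fell from 43.4 ± 11.8 to 17.2 ± 1.26 CPM, from 52.3 ± 8.32 to 16.9 ± 0.842 CPM and from 73 ± 13.8 to 22 ± 2.73 CPM. Fh1, the fumarase that takes the next step, rose from 14.2 ± 1.17 to 35.2 ± 1.91 CPM (1.32 on the log2 scale, adjusted p = 1.33e-05). Genes that set the activity of pyruvate dehydrogenase rose on both sides, the inhibitory kinase Pdk3, X-linked, from 49.9 ± 6.3 to 153 ± 7.59 CPM and the activating phosphatase Pdp1 from 45.9 ± 6.46 to 118 ± 3.21 CPM. Pdk3 measured 43.9, 56.5 and 49.3 CPM in PAC and 158, 157 and 144 CPM in RS.

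Of 36 fatty acid oxidation and carnitine genes 27 fell and 4 rose (median -1.22), and 3 of the 4 rises lay at the activation step. The acyl-CoA synthetase gene Acsl1 measured 283, 390 and 364 CPM in PAC and 1423, 1511 and 1590 CPM in RS (chr8:46471037-46536051, log2 fold change 2.12, SE 0.15, adjusted p = 6.63e-07), and Acsl5 and Acsbg2 rose from 5.55 ± 1.46 to 23.1 ± 2.2 CPM and from 25.9 ± 5.18 to 97.2 ± 10.8 CPM. Acsl3 and Acsbg1, members of the same enzyme class, fell from 106 ± 18.4 to 12.6 ± 1.12 CPM and from 29.5 ± 5.27 to 2.64 ± 0.426 CPM. Downstream, the carnitine transferase gene Cpt1a fell from 21.1 ± 2.18 to 4.75 ± 0.644 CPM, the dehydrogenase gene Acadvl from 29.5 ± 6.98 to 6.4 ± 0.551 CPM and Hadhb, of the trifunctional protein, from 288 ± 63 to 108 ± 12.8 CPM.

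Genes of ketone body use moved in both directions. Oxct2a, a testis gene for the enzyme that activates acetoacetate, measured 14.1, 26.3 and 9.64 CPM in PAC and 150, 148 and 179 CPM in RS (3.25 on the log2 scale, adjusted p = 6.23e-05). Oxct2b, a copy of it, measured 19.8, 28.3 and 21.7 CPM in PAC and 192, 192 and 208 CPM in RS (3.09 on the log2 scale, adjusted p = 3.2e-07). Their widely expressed relative Oxct1 rose from 75.6 ± 4.91 to 102 ± 6.31 CPM, a call lost without RS replicate 2 (log2 fold change 0.40). Oxct2a and Oxct2b are near-identical neighbours, so reads may have been shared between them. Oxct2a also lies within the bounds of Bmp8a, a gene described below, and may share reads with that gene as well. Over the whole list of 14 genes 7 fell and 4 rose, 4 fell without RS replicate 2, and 7 rose with log2(FPKM + 1) values.

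Genes of lipid synthesis rose and fell in shares close to the background. Of 28 cholesterol synthesis genes 14 fell and 6 rose, and of 42 phospholipid genes 20 fell and 11 rose. Under the protein-coding scaling 11 and 10 of the cholesterol genes and 13 and 14 of the phospholipid genes did so. Cyp51, the sterol demethylase, rose from 55.1 ± 5.18 to 152 ± 11.7 CPM and the squalene synthase gene Fdft1 from 450 ± 7.67 to 713 ± 6.98 CPM, while Mvd, an enzyme of the mevalonate pathway, fell from 5.7 ± 1.23 to 1.13 ± 0.0295 CPM. Agpat2, which makes phosphatidic acid, measured 15.9, 23.8 and 15.4 CPM in PAC and 120, 130 and 134 CPM in RS (chr2:26593057-26604417, log2 fold change 2.80, SE 0.23, adjusted p = 1.62e-06). Lpcat2b and Gpat3, acyltransferases of phospholipid remodelling and of the first glycerolipid step, rose from 116 ± 19.4 to 385 ± 23.8 CPM and from 15.4 ± 3.59 to 50.9 ± 4.23 CPM, and Gpat2 and Pld6, proteins of the mitochondrial outer membrane that also serve piRNA production, fell from 99.3 ± 16.4 to 20.8 ± 1.17 CPM and from 137 ± 34 to 21.9 ± 2.21 CPM. In the peroxisome, 23 of 34 genes fell and 8 rose: the import receptor gene Pex7 fell from 13.3 ± 3.53 to 1.75 ± 0.371 CPM, and Pex3, which seeds the peroxisome membrane, rose from 112 ± 6.84 to 247 ± 9.47 CPM.

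Genes of nucleotide and methyl group metabolism mostly fell. Of 41 purine and pyrimidine genes 24 fell and 5 rose (3 without RS replicate 1, 8 under the protein-coding scaling). Dut, which keeps uracil out of DNA, fell from 40.7 ± 6.85 to 3.82 ± 0.483 CPM (-3.41 on the log2 scale, adjusted p = 1.72e-07) and Adsl, an enzyme of purine synthesis, from 12.2 ± 3.02 to 1.6 ± 0.261 CPM. Impdh2, the rate-limiting step to guanine nucleotides, rose from 38.2 ± 4.03 to 93.5 ± 8.64 CPM. In folate and methyl group metabolism 17 of 23 genes fell and 2 rose, or 1 when any PAC or RS library but PAC replicate 1 was left out, with a median of -1.33. Mat2a, which makes S-adenosylmethionine, measured 69.5, 65.2 and 62.9 CPM in PAC and 11.8, 11.8 and 12.9 CPM in RS, and Mtr, the methionine synthase, fell from 56.9 ± 4.48 to 11.4 ± 1.02 CPM. Mthfd1 rose from 2.56 ± 0.399 to 5.83 ± 0.767 CPM. The kinases that share out phosphate were split evenly, with 8 of 26 genes lower and 8 higher, or 3 lower under the protein-coding scaling. Ak1, a cytosolic adenylate kinase, rose from 78.9 ± 10.9 to 270 ± 14.9 CPM (1.78 on the log2 scale, adjusted p = 0.000147), and Ckmt2, a mitochondrial creatine kinase, from 8.12 ± 0.84 to 20.6 ± 1.71 CPM.

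Redox genes moved in both directions. Gclc and Gclm, the subunits of the enzyme that limits glutathione synthesis, fell from 33.8 ± 2.52 to 4.55 ± 0.0629 CPM and from 19.9 ± 3.27 to 7.05 ± 1.34 CPM. Txndc2, a thioredoxin of the sperm fibrous sheath, rose from 94.3 ± 17 to 501 ± 26.4 CPM, and Prdx4, the peroxiredoxin of the secretory pathway, measured 46.3, 57.4 and 39.5 CPM in PAC and 199, 233 and 222 CPM in RS (chrX:155323918-155342272, log2 fold change 2.19, SE 0.24, adjusted p = 1.14e-05). Srxn1, which repairs overoxidized peroxiredoxins, rose from 6.43 ± 1.12 to 27.8 ± 1.2 CPM, and Gpx4, the selenium enzyme that later becomes part of the sperm midpiece, from 955 ± 227 to 1801 ± 85.9 CPM. Over the list of 38 genes 18 fell and 10 rose, or 10 fell and 15 rose under the protein-coding scaling.

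Iron genes fell in 24 of 42 cases and rose in 4, or 11 with the protein-coding scaling. Tfrc, the transferrin receptor that brings iron in, measured 22.5, 20.9 and 21.8 CPM in PAC and 2.17, 2.24 and 1.61 CPM in RS (-3.43 on the log2 scale, adjusted p = 2.8e-07), and Fth1, the ferritin heavy chain that stores it, fell from 29.9 ± 6.93 to 5.55 ± 0.634 CPM. Slc25a37, mitoferrin, which carries iron into mitochondria, rose from 8.55 ± 2.62 to 47.4 ± 3.25 CPM (2.47 on the log2 scale, adjusted p = 2.83e-06), and Isca1, of iron-sulphur cluster assembly, from 85.8 ± 4.48 to 289 ± 19.6 CPM. Zinc genes fell in 13 of 24 cases and rose in 6. Slc30a4, which moves zinc out of the cytosol, measured 41.1, 49.9 and 34.3 CPM in PAC and 194, 228 and 236 CPM in RS and had no overlap between groups (2.39 on the log2 scale, adjusted p = 1.86e-06). The importers Slc39a14 and Slc39a7 fell from 11.3 ± 1.68 to 1.07 ± 0.0517 CPM and from 27.9 ± 6.71 to 3.36 ± 0.858 CPM, Slc39a12 rose from 4.24 ± 1.0 to 11.8 ± 0.94 CPM, and metallothionein Mt2 fell from 275 ± 55.5 to 133 ± 4.91 CPM.

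Genes of the early secretory pathway mostly fell. N-glycosylation genes, which build and trim the sugar tree put on proteins in the endoplasmic reticulum (ER), fell in 37 of 48 cases and rose in 6 (median -1.18). The oligosaccharyltransferase subunit genes Rpn1, Rpn2 and Ddost fell from 355 ± 53.9 to 175 ± 4.43 CPM, from 428 ± 17 to 212 ± 11 CPM and from 98.5 ± 6.34 to 50 ± 1.58 CPM, whereas Stt3b, a catalytic subunit, did not pass the test (966 ± 102 CPM in PAC and 863 ± 32.5 CPM in RS, adjusted p = 0.27). Mgat4a and Mgat4c, branching enzymes of the Golgi, rose from 11.8 ± 1.74 to 40.9 ± 0.685 CPM and from 3.16 ± 0.758 to 8.48 ± 2.06 CPM. In COPI, COPII and Golgi transport 37 of 53 genes fell and 3 rose (8 under the protein-coding scaling). Uso1, the tether of ER vesicles, fell from 23.7 ± 4.2 to 3.4 ± 0.44 CPM, Gopc, a Golgi protein known from acrosome formation, from 10.7 ± 3.75 to 1.62 ± 0.249 CPM, and Arf4 rose from 22.1 ± 6.51 to 43.5 ± 2.1 CPM.

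Synthesis of GPI anchors gives many surface proteins their lipid tail, and 14 of its 24 genes fell and 5 rose. Pigq, a subunit of the first enzyme, measured 214, 152 and 150 CPM in PAC and 8.11, 8.3 and 8.67 CPM in RS (chr17:25926420-25942881, log2 fold change -4.36, SE 0.17, adjusted p = 1.21e-08), while Piga, the X-linked catalytic subunit of the same enzyme, rose from 6.83 ± 0.893 to 25.6 ± 1.41 CPM (1.91 on the log2 scale, adjusted p = 1.44e-06). Pigf and Pgap2, which act late in assembly and in remodelling, rose from 69.4 ± 9.33 to 157 ± 9.87 CPM and from 16.6 ± 1.37 to 44.1 ± 1.1 CPM.

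Of 41 ER chaperone and unfolded protein response genes 24 fell and 8 rose. Calr3 and Creb3l4, the germ cell calreticulin and a membrane-bound transcription factor of the testis, rose from 24.2 ± 2.73 to 100 ± 10.6 CPM and from 224 ± 30.9 to 654 ± 41.1 CPM. Clgn, the germ cell calnexin, fell from 1197 ± 105 to 714 ± 36.4 CPM, Atf4 from 17.8 ± 3.84 to 2.78 ± 0.168 CPM and Sel1l, of ER-associated degradation, from 88.1 ± 9.11 to 14.3 ± 0.781 CPM.

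V-ATPase genes, for the pump that acidifies lysosomes and the acrosome, fell in 15 of 24 cases and rose in 4, or 9 and 7 under the protein-coding scaling. The genes of the E subunit moved in opposite directions. Atp6v1e1 measured 32.2, 27.3 and 24.3 CPM in PAC and 3.5, 4.32 and 4.76 CPM in RS (-2.74 on the log2 scale, adjusted p = 5.46e-07), and Atp6v1e2, its testis form, 82, 96.4 and 92.5 CPM in PAC and 289, 293 and 269 CPM in RS (1.65 on the log2 scale, adjusted p = 1.1e-05). Atp6v1b1, a B subunit known from kidney and epididymis, rose from 7.81 ± 1.23 to 26 ± 0.335 CPM. Lysosome genes fell in 33 of 47 cases and rose in 8. Ctsd, a main lysosomal protease, fell from 11.8 ± 2.64 to 2.6 ± 0.772 CPM and Lamp2, a lysosomal membrane protein gene, rose from 8.12 ± 0.413 to 14 ± 1.69 CPM.

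Autophagy genes fell in 22 of 44 cases and rose in 5 (10 under the protein-coding scaling). Nbr1, the receptor that brings ubiquitin-tagged cargo to the autophagosome, measured 201, 268 and 254 CPM in PAC and 975, 1056 and 1123 CPM in RS (chr11:101552107-101581951, log2 fold change 2.12, SE 0.16, adjusted p = 8.25e-07), and Gabarapl1, of the LC3 family it binds, rose from 125 ± 21.1 to 344 ± 12.9 CPM. Wipi2 and Atg4d, of autophagosome formation, fell from 126 ± 8.56 to 38.2 ± 0.677 CPM and from 78 ± 17.5 to 23.9 ± 2.51 CPM. In ESCRT and retromer sorting 23 of 38 genes fell and 3 rose, or 14 and 7 under the protein-coding scaling, and without ES replicate 1 the rises numbered 5. Snx27 fell from 173 ± 16.1 to 46.1 ± 4.74 CPM, Vps25 from 8.5 ± 0.721 to 1.22 ± 0.312 CPM, and Vps36, a partner of Vps25 in the ESCRT-II complex, rose from 7.71 ± 1.14 to 18.8 ± 0.898 CPM.

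**Figure D3:**
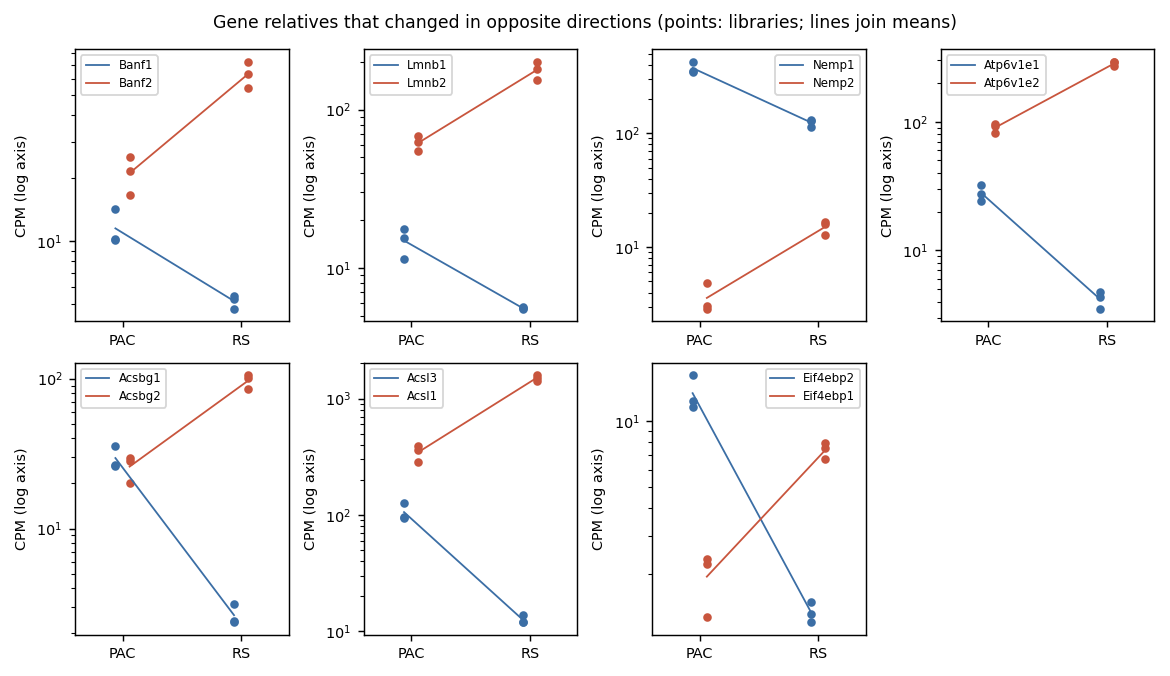
CPM of each library (points, log axis) in pachytene spermatocytes (PAC) and round spermatids (RS) for 7 pairs of related genes, chosen after their values were seen, with lines between the means. In each panel the blue gene fell and the red gene rose, for example Atp6v1e1 from 27.9 ± 3.98 to 4.19 ± 0.642 CPM and Atp6v1e2 from 90.3 ± 7.42 to 284 ± 12.7 CPM.

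Ubiquitin ligases and their adaptors changed in both directions. Of 47 genes of cullin scaffolds, adaptors and the COP9 signalosome 25 fell and 8 rose (13 under the protein-coding scaling). Klhl10, the germ cell adaptor of CUL3 that sperm production needs, measured 166, 222 and 211 CPM in PAC and 711, 763 and 749 CPM in RS (1.89 on the log2 scale, adjusted p = 1.03e-06). Dcun1d1, which attaches NEDD8 to cullins, rose from 138 ± 14.7 to 554 ± 19.5 CPM, and Nae1, a subunit of the enzyme that activates NEDD8, fell from 113 ± 15.8 to 13.2 ± 1.34 CPM (-3.10 on the log2 scale, adjusted p = 1.34e-07). Of 71 Rnf genes 30 fell and 19 rose, shares of 42.3% and 26.8%. Rnf133 and Rnf151, spermatid RING ligases, rose from 34 ± 7.08 to 186 ± 12.8 CPM and from 151 ± 32.3 to 540 ± 9.43 CPM, and Rnf6 fell from 92.8 ± 7.3 to 6.99 ± 0.933 CPM.

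Among 42 Trim genes 19 fell and 14 rose. Trim36 and Trim17 rose from 267 ± 48.6 to 999 ± 48.5 CPM and from 125 ± 13.4 to 456 ± 20.8 CPM, and Trim35 fell from 50.5 ± 6.64 to 2.99 ± 0.0904 CPM. F-box genes, which choose the substrates of SCF ligases, fell in 33 of 59 cases and rose in 14, with Fbxo39 going from 18 ± 5.47 to 84.5 ± 4.09 CPM and Fbxo43, an inhibitor of the anaphase-promoting complex in meiosis, from 92.9 ± 10.4 to 6.76 ± 0.268 CPM. Of 45 Kelch genes 24 fell and 9 rose (14 under the protein-coding scaling), and Klhl9, a CUL3 adaptor at mitosis, fell from 93.9 ± 4.77 to 5.17 ± 0.291 CPM. Ubiquitin-specific proteases fell in 24 of 49 cases and rose in 13, with Usp50 rising from 65.8 ± 12.3 to 254 ± 17.1 CPM and Usp5, which recycles free ubiquitin chains, falling from 76.5 ± 9.01 to 11.8 ± 1.46 CPM. DnaJ co-chaperones, which hand proteins to HSP70, rose in 14 of 45 cases and fell in 16 (10 under the protein-coding scaling). Dnajb8 measured 47.8, 57.9 and 38.6 CPM in PAC and 281, 332 and 330 CPM in RS (2.71 on the log2 scale, adjusted p = 2.11e-06), and Dnajb7, Dnajb3 and Dnajc5b rose from 104 ± 16.6 to 435 ± 24.2 CPM, from 553 ± 66.9 to 1132 ± 61 CPM and from 53.2 ± 5.29 to 214 ± 12.8 CPM.

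Signalling genes moved in both directions. In the Wnt pathway 31 of 51 genes fell and 14 rose (median -1.50), and 19 fell with a minimum of 50 counts. Wnt3, a secreted ligand, measured 7.0, 8.22 and 7.32 CPM in PAC and 35.5, 45.6 and 45.1 CPM in RS (chr11:103774175-103818021, log2 fold change 2.49, SE 0.17, adjusted p = 4.97e-07). Csnk1g2, the kinase that phosphorylates the LRP6 coreceptor, rose from 190 ± 31.7 to 844 ± 28 CPM (2.15 on the log2 scale, adjusted p = 3.33e-06), and Cdk16, a kinase that cyclin Y activates and sperm formation needs, from 26.7 ± 5.06 to 100 ± 2.34 CPM. The scaffold gene Apc fell from 17.6 ± 6.46 to 2.67 ± 0.112 CPM, the receptor gene Fzd6 from 7.74 ± 1.49 to 0.71 ± 0.167 CPM and the nuclear effector gene Lef1 from 30 ± 15.7 to 4.62 ± 1.42 CPM.

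In TGF-beta, BMP and activin signalling 18 of 31 genes fell and 7 rose. Bmp8a, a ligand made by germ cells, measured 18.2, 20.6 and 21.1 CPM in PAC and 113, 138 and 110 CPM in RS (chr4:123312645-123343252, log2 fold change 2.59, SE 0.21, adjusted p = 1.52e-06), and its close neighbour Bmp8b may share reads with it. Oxct2a, described above, lies within the bounds of Bmp8a (chr4:123321875-123323679), so reads may have been shared there too. The rises of Bmp8a and Oxct2a may therefore not be separate results, which was not tested. The receptor genes Acvr1b and Bmpr1a fell from 23.1 ± 0.546 to 3.06 ± 0.262 CPM and from 7.06 ± 1.79 to 1.45 ± 0.375 CPM, and Tgfbr1 rose from 34 ± 4.43 to 54.4 ± 0.57 CPM. Notch signalling had 13 of 24 genes lower and 3 higher (5 under the protein-coding scaling): the ligand gene Jag1 rose from 2.86 ± 0.541 to 16.2 ± 0.842 CPM and the receptor gene Notch4 from 4.96 ± 1.3 to 16.2 ± 0.458 CPM, while Rbpj, the DNA-binding effector, fell from 6.88 ± 1.16 to 1.05 ± 0.198 CPM and Adam17, a receptor protease, from 15.2 ± 1.2 to 4.3 ± 0.259 CPM. In the Hedgehog pathway 6 of 14 genes fell and 3 rose, and 3 fell with a minimum of 50 counts and 2 with log2(FPKM + 1) values. Sufu, the inhibitor of the pathway, rose from 83.2 ± 4.14 to 158 ± 11.9 CPM.

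Hippo signalling was 1 of the 4 lists with more rises than falls, 9 and 8 of 19 tested genes. The coactivator genes Yap1 and Wwtr1 rose from 10.2 ± 1.34 to 21.9 ± 1.01 CPM and from 7.89 ± 2.74 to 22 ± 0.15 CPM, their binding proteins Amotl1 and Vgll4 from 46 ± 10.2 to 120 ± 6.68 CPM and from 3.98 ± 0.475 to 12.5 ± 0.531 CPM, and the kinase gene Lats2 from 22.4 ± 9.55 to 45.5 ± 2.84 CPM. Upstream, Sav1 and Mob1a, which activate the kinases, fell from 84.6 ± 9.68 to 18 ± 0.751 CPM and from 54.7 ± 6.58 to 8.52 ± 0.143 CPM, and Nf2 from 93.6 ± 10 to 55.7 ± 3.26 CPM. Falls numbered 5 with a minimum of 50 counts or with log2(FPKM + 1) values.

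MAP kinase genes fell in 25 of 45 cases and rose in 7, or 12 under the protein-coding scaling. Araf, an X-linked kinase gene of the classical cascade, measured 2.3, 2.6 and 1.62 CPM in PAC and 5.15, 5.22 and 5.32 CPM in RS (1.26 on the log2 scale, adjusted p = 0.000433). Mapk6, an atypical kinase also called ERK3, rose from 321 ± 61.9 to 622 ± 67.3 CPM. In PI3K, mTOR and AMPK signalling 29 of 51 genes fell and 6 rose (10 under the protein-coding scaling), with Mlst8, a subunit of both mTOR complexes, falling from 24.4 ± 4.45 to 2.64 ± 0.498 CPM and the kinase gene Pdpk1 rising from 129 ± 14.5 to 187 ± 6.01 CPM. Phosphoinositide genes fell in 27 of 62 cases and rose in 17, or 23 and 25 under the protein-coding scaling. Plcz1, the sperm phospholipase that starts calcium waves in the egg, measured 197, 249 and 220 CPM in PAC and 895, 950 and 895 CPM in RS (2.04 on the log2 scale, adjusted p = 2.9e-06), and the phosphatase gene Synj2 rose from 17.5 ± 3.8 to 67.9 ± 1.04 CPM. Protein phosphatase genes fell in 21 of 41 cases and rose in 6 (11 under the protein-coding scaling). Ppp2r2b and Ppp2r5a, targeting subunits of PP2A, rose from 5.06 ± 1.28 to 31.1 ± 2.75 CPM and from 4.76 ± 0.893 to 22.4 ± 1.11 CPM while Ppp2ca, a catalytic subunit, fell from 34.7 ± 5.75 to 6.73 ± 0.998 CPM.

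Retinoid and clock genes changed in both directions. Of 24 retinoid genes 13 fell and 6 rose, and 8 fell with a minimum of 50 counts. Nr2c2, an orphan receptor known as TR4, measured 402, 353 and 363 CPM in PAC and 52.8, 55.7 and 58.8 CPM in RS (chr6:92091418-92173058, log2 fold change -2.74, SE 0.15, adjusted p = 1.08e-07), and Nr6a1, the germ cell nuclear factor, rose from 220 ± 32.9 to 474 ± 8.93 CPM. Aldh1a1, a retinal dehydrogenase that Leydig cells also express, fell from 50.2 ± 9.4 to 4.58 ± 0.827 CPM, beside the fall of the Leydig markers given above. Of 23 clock genes 11 fell and 4 rose. Clock, the activator of the circadian loop, measured 104, 124 and 111 CPM in PAC and 263, 309 and 312 CPM in RS (1.38 on the log2 scale, adjusted p = 1.05e-05), and its partner Arntl rose from 3.41 ± 0.532 to 6.06 ± 0.329 CPM. Their repressors fell, Cry1 from 66 ± 3.07 to 10.7 ± 0.906 CPM and Cry2 from 8.79 ± 2.29 to 2.35 ± 0.159 CPM, whereas Per1 and Per2 did not pass the test (Per1 25.9 ± 8.02 CPM in PAC and 20.5 ± 1.56 CPM in RS, adjusted p = 0.175; Per2 4.12 ± 1.94 CPM in PAC and 2.89 ± 0.379 CPM in RS, adjusted p = 0.183). Without PAC replicate 1 both were called lower, Per1 at -0.55 and Per2 at -0.83 on the log2 scale (adjusted p = 0.0158 and 0.0185).

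Cell death genes fell in 28 of 42 cases and rose in 6 (median -1.29). Bcl2l14, a BCL2 family gene of the testis, measured 124, 154 and 136 CPM in PAC and 526, 552 and 565 CPM in RS (1.99 on the log2 scale, adjusted p = 1.74e-06), and Bcl2l11, the BH3-only death activator BIM, rose from 10.8 ± 1.53 to 55.8 ± 3.42 CPM (2.37 on the log2 scale, adjusted p = 4.64e-06). Bcl2l2, a survival gene that spermatogenesis needs, rose from 10.4 ± 1.87 to 20.9 ± 1.2 CPM. Diablo, an antagonist of caspase inhibitors, fell from 606 ± 94.1 to 176 ± 8.8 CPM, the initiator caspase gene Casp9 from 10.6 ± 1.75 to 2.03 ± 0.0429 CPM and Bcl2l12 from 71 ± 10.9 to 6.19 ± 0.319 CPM. Interferon and nucleic acid sensing genes fell in 25 of 36 cases and rose in 8 (median -1.81), or 5 rose with log2(FPKM + 1) values. Stat4, a transcription factor of cytokine signalling, measured 88.8, 159 and 164 CPM in PAC and 549, 516 and 516 CPM in RS (chr1:51987106-52107189, log2 fold change 1.94, SE 0.23, adjusted p = 1.84e-05), and the exonuclease gene Isg20 rose from 21.1 ± 3.24 to 69.3 ± 7.25 CPM. The receptor gene Ifnar1 fell from 15.3 ± 1.88 to 1.65 ± 0.133 CPM and the receptor kinase gene Tyk2 from 38.4 ± 6.41 to 4.1 ± 0.71 CPM. Blood cells express many of these genes, and the part of the macrophage and blood markers given above was not tested.

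Adhesion and actin genes rose in shares near the background. Of 48 junction genes 18 fell and 14 rose (29.2%), and of 63 actin genes 24 fell and 19 rose (30.2%). Under the protein-coding scaling 14 and 18 of the junction genes and 17 and 27 of the actin genes did so, and with log2(FPKM + 1) values 11 junction genes fell. Nectin2 and Nectin4, of the nectin family of adhesion proteins, rose from 8.1 ± 1.57 to 30.6 ± 2.14 CPM and from 1.83 ± 0.545 to 9.05 ± 0.539 CPM, and Nectin3, known from the spermatid side of contacts with Sertoli cells, did not pass the test (598 ± 50 CPM in PAC and 639 ± 11.2 CPM in RS, adjusted p = 0.482) and was called higher under the protein-coding scaling (0.49 on the log2 scale, adjusted p = 0.00603) and with upper-quartile factors (0.40, adjusted p = 0.0184). Jup, plakoglobin, rose from 11.6 ± 2.56 to 32 ± 4.06 CPM, and Cdh2, N-cadherin, and Cldn12 fell from 118 ± 12 to 39.1 ± 4.41 CPM and from 13.3 ± 2.86 to 0.88 ± 0.137 CPM. Fscn3, the testis form of the actin bundler fascin, measured 50, 71.5 and 44.5 CPM in PAC and 390, 496 and 546 CPM in RS, the largest rise of the actin list among genes above 5 CPM (chr6:28427870-28438622, log2 fold change 3.11, SE 0.26, adjusted p = 2.23e-06). Capza3, the germ cell capping protein, rose from 135 ± 18.8 to 547 ± 22.3 CPM and Pfn3, a testis profilin, from 8.37 ± 0.912 to 26 ± 1.75 CPM. Pfn1, the common profilin, measured 167, 131 and 113 CPM in PAC and 21.7, 21 and 21.6 CPM in RS (-2.68 on the log2 scale, adjusted p = 1.79e-07), and the cytoplasmic actin genes split, Actg1 falling from 1129 ± 44.4 to 472 ± 37.2 CPM and Actb rising from 58.1 ± 22.2 to 110 ± 3.61 CPM.

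Families gathered by name included lists with large shares of rises. Of 259 solute carrier genes 128 fell and 67 rose, close to the background at 49.4% and 25.9%. Slc2a3, the neuronal and germ cell glucose transporter, fell from 1981 ± 228 to 428 ± 67.5 CPM, and the amino acid transporters Slc7a5, Slc7a1 and Slc1a3 from 23.5 ± 3.95 to 1.21 ± 0.157 CPM, from 6.98 ± 2.99 to 0.306 ± 0.164 CPM and from 14.9 ± 2.15 to 0.761 ± 0.235 CPM. Of 61 potassium channel genes 23 rose and 21 fell, shares of 37.7% and 34.4% (median 0.53). Falls numbered 10 with a minimum of 50 counts, 13 with log2(FPKM + 1) values and 15 under the protein-coding scaling. Kcnk10, a background potassium channel gene at chr12:98429432-98578213, measured 870, 861 and 1074 CPM in PAC and 13.3, 10.8 and 12.2 CPM in RS, the strongest fall of a listed gene above 100 CPM (log2 fold change -6.27, SE 0.22, adjusted p = 4.97e-09). Kcnj9 fell from 281 ± 74.9 to 65.2 ± 1.02 CPM, and Kcne3, an accessory subunit, rose from 90 ± 10.1 to 283 ± 22.4 CPM.

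Most olfactory receptor genes had too few counts to test. Of 1119 receptor genes listed, 32 had enough counts to be tested, and of these 18 rose and 4 fell (2 without RS replicate 1), and the median was 1.49. With a minimum of 50 counts 10 rose and 2 fell. Genes that entered only through RS counts had to be higher there, so the count says nothing about the receptors that were not tested. Olfr701 measured 16, 20.2 and 17.3 CPM in PAC and 59.3, 61.5 and 58.6 CPM in RS (1.75 on the log2 scale, adjusted p = 1.92e-06), and Olfr112 rose from 15.2 ± 0.703 to 47.9 ± 5.16 CPM. Olfr1279 fell from 12.4 ± 4.51 to 5.45 ± 1.2 CPM. Leucine-rich repeat genes rose in 21 of 51 cases and fell in 13 (median 0.25), with Lrrc34 at 1085 ± 135 CPM in PAC and 1774 ± 106 CPM in RS and Lrrc74a rising from 69.7 ± 8.78 to 333 ± 29.7 CPM. Coiled-coil genes rose in 39 of 124 cases and fell in 44 (50 and 30 under the protein-coding scaling), and Ccdc91 and Ccdc54 rose from 138 ± 20.1 to 747 ± 45.3 CPM and from 172 ± 27.4 to 755 ± 83.5 CPM. Of 46 Gpr and Adgr receptors 15 rose and 21 fell, or 17 and 12 under the protein-coding scaling, with Adgrf3 rising from 7.45 ± 1.43 to 24.5 ± 1.47 CPM and Gpr160 falling from 417 ± 58.5 to 178 ± 5.93 CPM.

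Levels of X-linked genes were compared with those of their autosomal relatives as FPKM, a value per length. For 18 pairs the autosomal gene was above the X-linked gene in 3 of 3 PAC libraries in 18 pairs and in 3 of 3 RS libraries in 17, with median ratios of 108 in PAC and 170 in RS. The pairs were chosen with earlier results of these data known, so these values do not speak for other X-linked genes. Some X-linked values were very low, such as 0.147 FPKM in PAC and 0.008 in RS for Fam50a. Pgk1, the glycolytic kinase, stood at 1.06, 1.23 and 1.56 FPKM in PAC and 2.17, 2.67 and 2.39 in RS, and its retrogene Pgk2 at 213, 264 and 247 in PAC and 751, 724 and 783 in RS. Both rose in the count table (Pgk1 log2 fold change 0.78, adjusted p = 0.00607; Pgk2 1.58, adjusted p = 3.36e-06). Ubl4b, relative of the ubiquitin-like Ubl4a that inserts tail-anchored proteins, went from 85 ± 19.4 to 535 ± 46.1 FPKM and Ubl4a from 0.491 ± 0.153 to 1.52 ± 0.171. G6pd2, relative of the pentose phosphate enzyme gene G6pdx, went from 6.08 ± 1.76 to 18.4 ± 1.17 FPKM.

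The exception was the pair for the RNA-binding subunit of the cleavage stimulation factor. Cstf2 on the X chromosome rose from 15.3 ± 3.15 to 47.9 ± 4.71 FPKM and its retrogene Cstf2t fell from 44.1 ± 6.65 to 13.9 ± 1.4, so that their order turned over in every RS library. The X-linked list had 18 tested genes, with Rps4x, which has no pair here, and without Fam50a, whose counts were too few. Of these 8 rose and 8 fell, or 4 and 5 fell without RS replicate 3 or 2 and 5 under the protein-coding scaling. Of the autosomal relatives 3 rose and 6 fell, and with the protein-coding scaling 7 rose. Ribosomal protein genes Rpl10, Rpl39 and Rpl36a on the X chromosome lay at 5.65 ± 1.48, 1.83 ± 0.844 and 3.33 ± 1.17 FPKM in RS, against 190 ± 10.3, 516 ± 52.5 and 51.1 ± 2.08 for Rpl10l, Rpl39l and Rpl36al. Such copies are alike in sequence, reads could have been divided between them, and the direction of Ddx3x differed between the count table (log2 fold change -0.60) and the FPKM table (0.30 on the log2(FPKM + 1) scale).

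**Figure D4:**
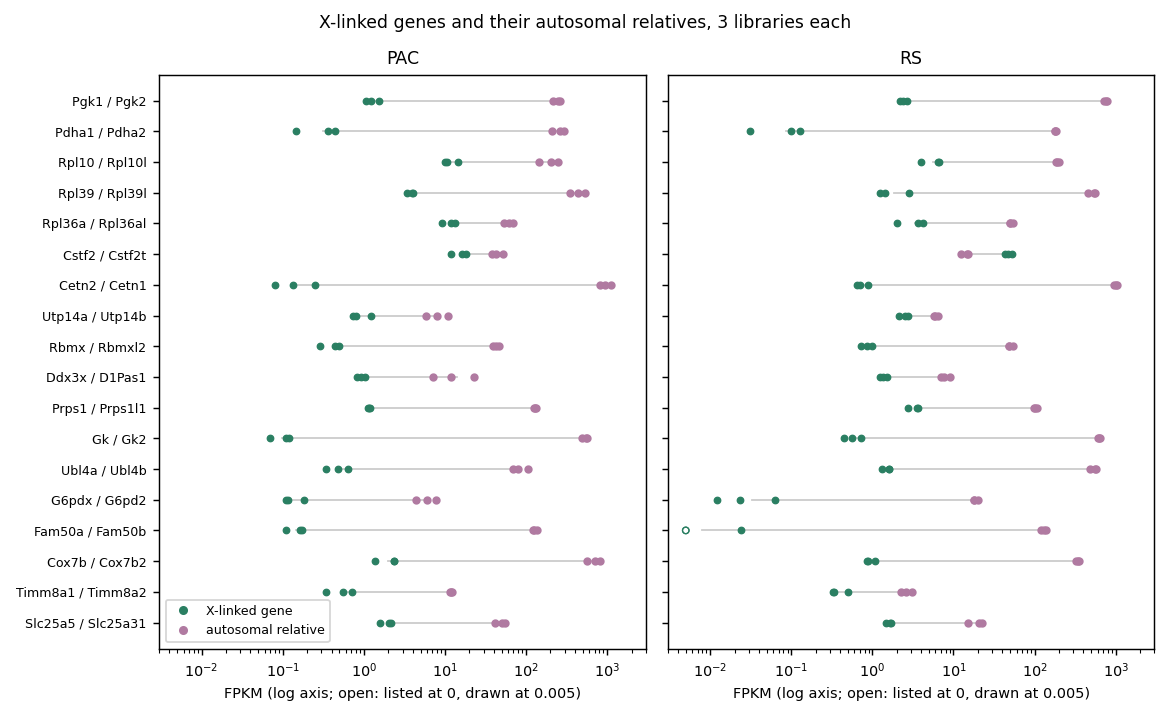
FPKM of 18 X-linked genes (green) and their autosomal relatives (purple) in each library (points, log axis) of pachytene spermatocytes (PAC) and round spermatids (RS), with values listed at 0 drawn as open circles. The autosomal gene lies to the right of the X-linked gene in all pairs in PAC and in 17 of 18 in RS, where Cstf2 and Cstf2t have changed places.

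Outside the lists, the largest changes fell on genes of several functions. Rhot2, a GTPase of the mitochondrial outer membrane that links mitochondria to transport motors, measured 37.2, 28.3 and 22.8 CPM in PAC and 0.578, 0 and 0 CPM in RS, so that 2 of the 3 RS libraries had no counts (log2 fold change -7.29, SE 0.78, adjusted p = 3.2e-05). Without RS replicate 1 the fitted value was -12.67, which with no counts left in RS depends on the prior count. The gene lies at chr17:25838457-25844525 in GRCm38.p6. C2cd4b, a gene of a calcium-binding domain family, measured 1409, 1318 and 1564 CPM in PAC and 22.8, 17.2 and 20.9 CPM in RS (-6.14 on the log2 scale, adjusted p = 4.34e-09), and Chst1, a sulphotransferase that acts on keratan sulphate, fell from 695 ± 49 to 9.98 ± 1.23 CPM. Histone genes of meiosis stood among the falls, the testis linker histone gene H1f6 with 2155, 1679 and 1261 CPM in PAC and 17.2, 16.9 and 15.9 CPM in RS and the testis H2B gene H2bc1 from 606 ± 136 to 12.3 ± 3.89 CPM. Stox1, Fam174b and the POU factor gene Pou5f2 fell from 723 ± 40.7 to 14 ± 3.62 CPM, from 824 ± 17.4 to 15 ± 1.87 CPM and from 150 ± 29 to 3.76 ± 0.201 CPM.

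Cyp19a1, aromatase, which turns androgens into oestrogens, measured 1253, 1110 and 1298 CPM in PAC and 18.2, 15 and 19.7 CPM in RS (chr9:54165937-54268164, log2 fold change -6.11, SE 0.18, adjusted p = 1.62e-09), and Agt, angiotensinogen, fell from 26.2 ± 3.15 to 0.285 ± 0.146 CPM. Leydig and Sertoli cells are known to express aromatase, and their markers fell as well, from a sum of 147 to 2.46 CPM and of 44.8 to 6.2 CPM. The part of those cells in the fall was not tested.

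Among the largest rises, Car2, a carbonic anhydrase that sets bicarbonate and pH, measured 12.8, 20.9 and 16.9 CPM in PAC and 125, 134 and 136 CPM in RS (chr3:14886269-14900770, log2 fold change 2.97, SE 0.19, adjusted p = 3.03e-07). Ttc24, a tetratricopeptide repeat gene, measured 7.84, 11.4 and 6.45 CPM in PAC and 69, 93.3 and 95 CPM in RS (3.33 on the log2 scale, adjusted p = 8.16e-06). Defb33, a beta-defensin gene, rose from 7.7 ± 2.47 to 66.1 ± 3.44 CPM, Klk1b8, of the kallikrein proteases, from 20.4 ± 5.86 to 183 ± 21.2 CPM, and Bpifa3, of the lipid-binding BPI fold family, from 15 ± 4.83 to 137 ± 22 CPM. Acte1, a testis actin gene, rose from 26.9 ± 8.03 to 217 ± 28.6 CPM and Nudt16l2 from 36.9 ± 10.2 to 288 ± 33.9 CPM. The uncharacterized genes 1700015G11Rik and 1700042G07Rik rose from 24.1 ± 5.66 to 208 ± 39.3 CPM and from 26.6 ± 6.2 to 214 ± 34.8 CPM, and Gm614 on the X chromosome from 20.7 ± 5.2 to 162 ± 18.5 CPM. These 10 genes were picked as the largest rises outside the lists, and in each every RS library lay above every PAC library.

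Genes that rose and genes that fell differed in the sequence before their starts. RefSeq promoters of GRCm38.p6, 250 bases before to 50 after the start, were at hand for 11981 of the 14836 tested protein-coding genes. CpG content was measured as the ratio of CG pairs counted to those that the base composition gives, a value that is high in CpG island promoters. The median ratio was 0.47 for genes that rose (3160 promoters) and 0.778 for genes that fell (5654), against 0.722 for all tested. Among genes that rose at least 4-fold it was 0.226 (553 promoters), and among those that fell at least 4-fold 0.737 (1785). A ratio below 0.5 was found in 51.7% of promoters of genes that rose and in 17.5% of those that fell. These shares are descriptions over genes, with no test.

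Short letter patterns differed less. The full cAMP response element TGACGTCA, on either strand, stood in 2.97% of promoters of genes that rose and 3.02% of those that fell, against 3.06% of promoters of tested genes and 1.88% of all 27025 promoters of the table. None of the patterns searched contains another. TGACGTCA holds a CG pair and the other patterns do not, and promoters of genes that rose were poorer in CG pairs. The shares were not adjusted for this, so equal shares do not show equal preference for the element. CAACTG, a core of the MYB site, stood in 14.1% and 10.5%, against 11.6% of tested and 13.6% of all promoters. GTTGCCAT, a core of the RFX site, stood in 1.93% and 1.01% (tested 1.34%, all 1.32%). TATAAA stood in 8.96% and 6.88% (tested 7.8%, all 14.2%) and CCAAT in 37.8% and 40.6% (tested 39.1%, all 37.9%).

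A set of 3 pairs of relatives shows the range of CpG content. In each pair the gene given last rose in RS, and its relative fell (Banf1, Atp6v1e1) or also rose (the X-linked Ubl4a, log2 fold change 1.58, adjusted p = 0.000378). The pairs were chosen after their values were seen. Each line gives the 200 bases before the RefSeq start on the gene's own strand in GRCm38.p6, with CG pairs in capitals. Banf1 (chr19:5366877-5367076, minus strand), Banf2 (chr2:144032902-144033101, plus), Atp6v1e1 (chr6:120822699-120822898, minus), Atp6v1e2 (chr17:86947888-86948087, minus), Ubl4a (chrX:74368549-74368748, minus) and Ubl4b (chr3:107555074-107555273, minus) are shown in that order.
Banf1: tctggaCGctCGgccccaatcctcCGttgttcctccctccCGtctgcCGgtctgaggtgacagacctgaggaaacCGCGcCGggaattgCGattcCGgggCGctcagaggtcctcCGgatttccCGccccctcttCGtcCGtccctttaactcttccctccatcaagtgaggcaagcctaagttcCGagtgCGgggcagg
Banf2: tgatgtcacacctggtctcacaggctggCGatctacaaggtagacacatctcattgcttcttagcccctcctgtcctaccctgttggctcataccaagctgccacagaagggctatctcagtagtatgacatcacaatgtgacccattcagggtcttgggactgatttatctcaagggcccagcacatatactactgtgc
Atp6v1e1: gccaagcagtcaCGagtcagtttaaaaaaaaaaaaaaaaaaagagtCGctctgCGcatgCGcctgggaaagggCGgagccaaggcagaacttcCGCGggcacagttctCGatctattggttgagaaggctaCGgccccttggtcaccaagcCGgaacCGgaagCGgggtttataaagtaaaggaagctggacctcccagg
Atp6v1e2: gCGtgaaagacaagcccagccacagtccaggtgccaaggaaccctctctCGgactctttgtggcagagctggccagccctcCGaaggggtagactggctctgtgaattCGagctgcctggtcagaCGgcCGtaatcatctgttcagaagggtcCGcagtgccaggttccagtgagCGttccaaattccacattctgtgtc
Ubl4a: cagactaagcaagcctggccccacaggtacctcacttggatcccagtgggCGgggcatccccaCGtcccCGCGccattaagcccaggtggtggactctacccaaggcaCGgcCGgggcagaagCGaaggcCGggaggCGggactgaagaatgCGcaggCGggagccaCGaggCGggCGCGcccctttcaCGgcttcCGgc
Ubl4b: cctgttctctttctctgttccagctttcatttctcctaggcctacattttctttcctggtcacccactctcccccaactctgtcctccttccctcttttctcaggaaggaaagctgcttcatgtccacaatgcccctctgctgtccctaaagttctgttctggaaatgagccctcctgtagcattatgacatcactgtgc
The stretch before Banf1 holds 17 CG pairs and that before Banf2 holds 1. Over the whole promoter the ratio was 0.906 for Banf1, which fell, and 0.2 for Banf2, which rose. The ratio was 0.801 for Atp6v1e1 and 0.401 for Atp6v1e2, with 12 and 8 CG pairs in the stretch, and 0.773 for Ubl4a and 0.0523 for Ubl4b, with 17 and 0 pairs. Ubl4b rose from 111 ± 22.8 to 675 ± 61.8 CPM (2.60 on the log2 scale, adjusted p = 2.27e-06).

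**Figure D5:**
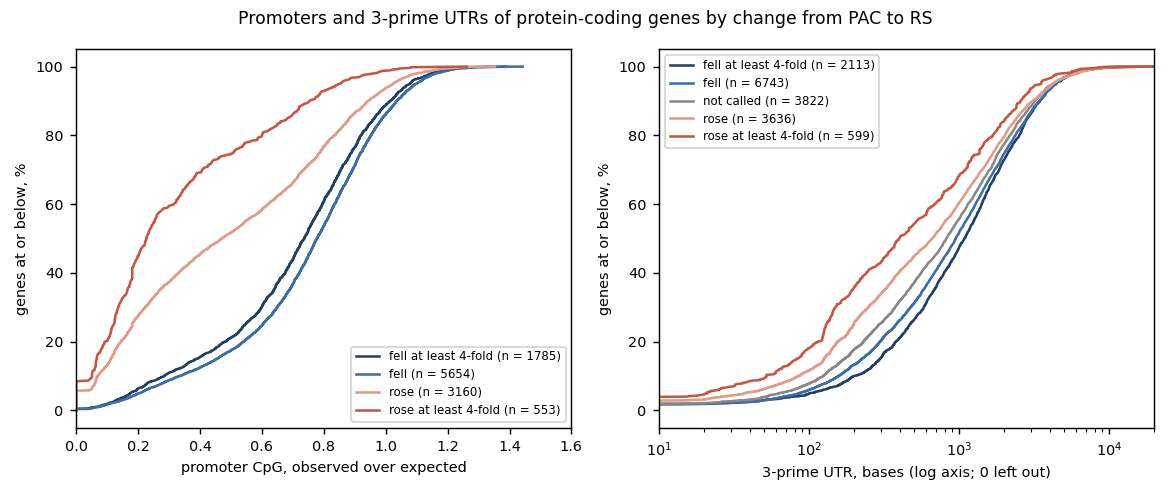
Cumulative percent of protein-coding genes at or below each promoter CpG ratio (left, observed over expected CG pairs) and each 3′ untranslated region length (right, bases, log axis), for genes that rose (light red), fell (blue) or changed at least 4-fold (dark red and dark blue) in round spermatids, with genes not called in grey on the right. Genes that rose gather at low ratios (median 0.47, and 0.226 at 4-fold or more) and genes that fell at higher ones (median 0.778 and 0.737).

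The gene models differed in build as well. Exons and 3′ untranslated regions were those of a single GENCODE transcript per gene, with the longest coding sequence, for 14214 of 14836 tested protein-coding genes. Some of these regions are as short as 3 bases, as for Ankrd11. Whether these transcripts are the ones made in these cells was not tested. Genes with a single exon made up 4.86% of those that rose and 1.82% of those that fell. Of 394 single-exon protein-coding genes tested 177 (44.9%) rose and 123 (31.2%) fell, whereas 25.1% of the 13820 genes with several exons rose and 47.9% fell. On the X chromosome 54 of 68 single-exon genes rose (79.4%) and 4 fell, and on autosomes 121 of 324 rose (37.3%) and 119 fell (36.7%). X-linked genes with several exons were not counted apart. Whether the rise on the X chromosome is particular to single-exon genes was therefore not tested. The median length of the 3′ untranslated region was 656 bases in genes that rose and 948 in genes that fell, and 397 and 1080 among those changed at least 4-fold. The median number of exons was 6 in genes that rose at least 4-fold and 8 in genes that fell at least 4-fold.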

How the data were processed

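RNA depleted of ribosomal RNA was measured in 9 mouse testis libraries (PAC, RS and ES, 3 each), which the series' design text calls biological replicates. Per the submitters' processing notes, reads were handled with HISAT2 and StringTie on GRCm38.p6. The deposited estimated counts (18.85% of the authors' values were not whole) were rounded and tested, and the deposited FPKM values served for levels per length. edgeR 4.0.16 (quasi-likelihood, robust, TMM, all 9 libraries, minimum count 10, Benjamini-Hochberg adjusted p below 0.05) kept 26030 features and removed 24463. Lists are described by counts and medians, with no set test. The members and lists were chosen with earlier results of these data known. For each list, the text draws on called members above 5 CPM without overlap, at most 3 per direction by fold change, and the called member of highest level, and outside the lists on the 10 largest changes per direction above 20 CPM. Acadvl, Actb, Banf1, Cbx5, Cbx7, Cdh2, Cpt1a, Cry2, Ctsd, Ddost, Hadhb, Jup, Kcne3, Lamp2, Lats2, Lmnb1, Lmnb2, Mtr, Nf2, Nrm, Olfr112, Pfn3, Rpn1, Sdha, Sdhc and Yap1 fell outside that rule and were chosen after their values were seen. Gene names came from the table for assembly GRCm38.p6, which matched 21726 of 21877 gene IDs. On simulated counts of 25344 genes for this comparison, 200 of them changed, the test found 83.3% of genes changed 4-fold, 32.8% of those changed 2-fold and 0% of those changed 1.5-fold, and made 6 false calls. In the data 72.5% of the tested features were called, and the adjustment of p-values is stricter where few genes change. The shares found in the simulation therefore do not carry over to the data. Alternatives were other scalings and filters, DESeq2 1.42.0, limma 3.58.1 on log2(FPKM + 1) and log2(FPKM + 0.1), PAC and RS alone, a replicate block and each PAC and RS library left out. Leaving out ES replicate 1 was added after seeing the data. Intervals were not drawn for single counts, and 3 counts correspond to 0.104 CPM in PAC and 0.0866 CPM in RS.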

Additional observations from a re-analysis of the deposited data

How the results depend on the processing

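Counts over all features and over protein-coding genes stayed within 1.5 times of the reported values under every alternative run. DESeq2's Wald test called 9766 higher and 9454 lower. Leaving out 1 PAC or RS library gave 9021 to 9808 higher and 7947 to 8606 lower over all features, and 3555 to 3884 and 6204 to 6739 over protein-coding genes. The replicate block gave 10117 and 8950 (4003 and 7005 protein-coding). Same-numbered PAC and RS libraries deviated together only weakly (r = -0.0162, 0.0246 and 0.106), and the other pairings gave -0.1 to 0.0818. With 3 libraries per group these values cannot show whether same-numbered libraries came from the same animals. The block moved no list count by over 1.5 times, TMM from protein-coding genes moved 30 of 150 and upper-quartile factors 17. Of 525 single genes, 26 lost their call under TMM from protein-coding genes and 1 under the block. Values that changed sign under TMM from protein-coding genes were those of Mtmr6 (0.08), Bsg (0.01), Prps1l1 (0.01), Ccdc38 (0.0) and Fam50b (0.35). Mgat5 changed sign with log2(FPKM + 1) (0.14) and log2(FPKM + 0.1) (0.15), and Ddx3x likewise (0.30 and 0.52). The cause was not tested. At this depth 24463 features had too few counts to be tested.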

Other observations

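Features without a protein-coding gene moved the other way from protein-coding genes. Of 6704 tested assembled transcripts that carry no gene ID, 4090 were higher in RS and 1017 lower (median log2 fold change 1.47). Of 4295 tested RefSeq non-coding transcripts, the test called 1888 higher and 861 lower (median 1.01). Protein-coding genes had a median of -0.46 in the same fit. Few of the RefSeq non-coding features passed the filter on low counts (4295 of 21104), and a feature could pass through the group where it was high, so these counts describe the tested features alone.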
